A study of Mus musculus with 14 samples.

Results

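The genes described here are those with a row in both deposited tables of a mouse lung study, 1 for the loss of Men1 and 1 for the loss of Kmt2a. Matched by gene ID, they number 70, out of 772 genes in the Men1 table, 3956 in the Kmt2a table and 4658 in either. Total RNA was sequenced in 14 libraries: 4 of Men1 KO and 4 of WT mice, and 3 of Kmt2a KO and 3 of further WT mice. Neither the allele, the Cre driver if any, nor strain, sex or age is given in the sources used here, and nothing beyond a number in each title says that libraries come from separate animals, so p-values measure the spread between these libraries. Tissue and source are labelled lung, while the extraction protocol speaks of macrophages from the peritoneal cavity. Of 21 alveolar markers, 18 have a Kmt2a row, with deposited wild-type means that sum to 149257 normalized counts, beside 48381 for the 14 macrophage markers with a row; the Men1 table holds no alveolar marker, so its tissue could not be checked in this way. Rows for Men1 and Kmt2a themselves are missing from both tables. Neither targeted gene thus passed the filter of its own comparison. That filter was p under 0.05 and a log2 fold change of 1 in size for Men1, and an adjusted p under 0.05 for Kmt2a. Their levels are not given, so the loss of the targeted gene could not be shown, and why they missed the filter was not tested.

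Men1 encodes menin, a scaffold protein that binds the N-terminal part of MLL, the product of Kmt2a. MLL methylates histone H3 at lysine 4, a mark of active promoters, and menin tethers MLL to part of its target genes, of which the Hox genes are the best known. Because the proteins share complexes, the question put to the tables is whether a gene that differs in one knockout also differs in the other, in which direction and by how much.

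Values are normalized counts, that is, read counts over the size factor of their library. These factors ran from 0.811 to 1.38 in the Men1 libraries and from 0.817 to 1.18 in the Kmt2a libraries. Total reads are unknown because both tables are filtered. Men1 values are listed in the order KO-6075, KO-6076, KO-6084 and KO-6086, and WT-6074, WT-6094, WT-6097 and WT-6100. The Kmt2a table gives group means only, from which the whole reads of 3 libraries per group were recovered; those libraries are called a, b and c, and which animal each is remains unknown. A log2 ratio is log2 of the KO mean over the WT mean of the same experiment, so positive values mean higher in the knockout. In bulk tissue, fewer cells of a type and less RNA per cell cannot be told apart.

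Of the 70 genes, 50 (71.4%) had the same direction in both knockouts and 20 had opposite directions. Both knockouts were above their wild type for 35 genes and below it for 15, while 18 were higher without Men1 and lower without Kmt2a, and 2 were lower without Men1 and higher without Kmt2a. For comparison, 70.1% of all genes in the Men1 table and 50.5% of those in the Kmt2a table were higher in the knockout. Genes lower without Men1 had the same direction in 15 of 17 cases, and genes higher without Men1 in 35 of 53. The share with the same direction was 60% (21 of 35) among genes whose higher group mean reached 20 in each experiment and 82.9% (29 of 35) among the rest. Above a mean of 50 it was 50% (7 of 14).

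**Figure D1:**
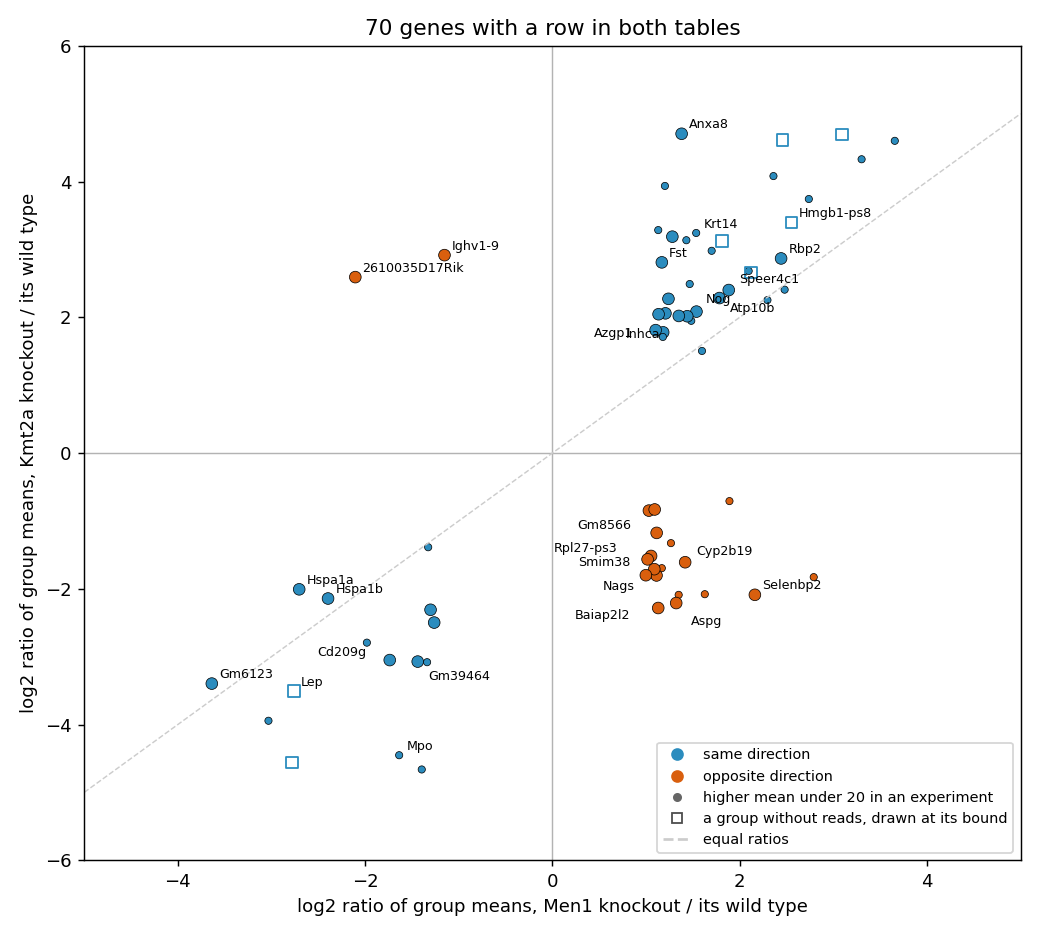
Log2 ratio of group means in the Men1 knockout (x axis) against the Kmt2a knockout (y axis) for the 70 genes, each against its own wild type; colour marks direction, small dots a higher mean under 20, and open squares the 7 genes with a group without reads, drawn at the bound that 3 reads would give. Of the 70 genes, 50 lie below or above 0 on both axes, and no gene lies near 0 on the x axis because Men1 genes were kept only at a deposited log2 fold change of 1 or more in size.

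Across the 63 genes with reads in every group, the log2 ratios correlated with Spearman's rho 0.62 and Pearson's r 0.61, given as a description because genes of one library share its composition and are not independent. With 10 added to each mean rho fell to 0.36 over the same 63 genes, an alternative added after the values were seen, and to 0.33 over all 70. Among genes higher without Men1 rho was 0.43 (48 genes), and among those lower without Men1 it was 0.25 (15 genes). The Kmt2a ratio was the larger in size in 37 of the 43 same-direction genes with reads in every group, and in 15 of the 20 opposite-direction genes. The filters were unlike, an adjusted p for Kmt2a and an unadjusted p with a cut on size for Men1. Among genes with few reads an adjusted p lets mainly large ratios through, so these counts do not show which loss had the larger effect. The median log2 ratio of the genes higher in both was 1.54 in Men1 (34 genes) and 2.45 in Kmt2a (30 genes). That of the genes lower in both was −1.69 (14 genes) and −3.05 (13 genes). Over each whole table, the authors' deposited log2 fold changes had medians of 1.88 and −1.98 for higher and lower genes in Men1 and 0.90 and −1.14 in Kmt2a. The shared genes thus lay below the Men1 medians in size and above those of Kmt2a.

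Few genes passed the adjusted threshold in Men1. An adjusted p is missing in the authors' deposited table for 557 of 772 genes, 23 of the 70 included, so these could not be called. Among genes with one, 5 of 47 shared genes had an adjusted p below 0.05 in Men1 (10.6%), beside 13 of 215 in the whole table (6.05%), and all 5 had the same direction in Kmt2a. Of these 5, 4 were higher and 1 lower, beside 4.65% of the genes with an adjusted p called higher and 1.4% called lower. A row in the Kmt2a table itself requires an adjusted p below 0.05 there (100% of its 3956 genes). Put the other way, 5 of the 13 genes called in Men1 had a Kmt2a row (38.5%), as had 42 of the 202 others with an adjusted p (20.8%) and 23 of the 557 without one (4.13%). Genes with more reads were more often in both tables: 39 of 169 with a Men1 mean of at least 20 (23.1%), against 31 of 603 below it (5.14%). Of the 772 Men1 gene IDs, 512 (66.3%) are in the annotation GENCODE M21, as are all 70 shared ones. A Men1 gene whose ID is missing from the annotation behind the Kmt2a table could not be shared, whatever its reads. How many such genes these shares include was not tested. The median of the higher group mean was 22.6 normalized counts for the 70 genes and 8.59 for the whole Men1 table, but 45.9 and 572 in Kmt2a, so the shared genes had more reads than most of one table and fewer than most of the other. They were also shorter, with a median deposited gene length of 2080.5 bases beside 3518.5 in the Kmt2a table. KO and WT libraries did not overlap for 24 of the 70 genes in Men1, 34.3% beside 35.5% of the whole table, and for 67 of 70 in Kmt2a, 95.7% beside 97.0%. Below, "rose" and "fell" are used only for genes past the authors' adjusted p.

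The 5 genes past the threshold in both tables were Azgp1, Fst, Rbp2 and Hmgb1-ps8, which rose, and Hspa1a, which fell. Azgp1 (chr5:137981520-137990233 on GRCm38) encodes zinc-alpha-2-glycoprotein, a secreted plasma protein that promotes lipid breakdown. Men1 KO libraries held 327, 308, 484 and 479.6 normalized counts and their WT libraries 159.6, 245, 232 and 108. Kmt2a KO libraries held 480.5, 495 and 604 and their WT libraries 72.9, 179 and 198. Every knockout library lay above every wild-type library of its experiment, and the means were 2.15 and 3.51 times the wild type. The adjusted p in the authors' deposited tables was 0.0108 and 3.51e-05. Of the 36 liver-type plasma protein genes listed, 13 had a Men1 row, all higher, and 7 a Kmt2a row, 6 of them higher. Only Azgp1 had both, so the other plasma protein genes of the 2 tables were not the same ones.

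Fst (chr13:114452262-114458949) encodes follistatin, which binds activin and blocks its signal. In the Men1 experiment it stood at 85, 72.6, 66.3 and 83.8 in KO and 29.6, 53.9, 21.3 and 32.1 in WT libraries, 76.9 ± 9.02 against 34.2 ± 13.9 (mean ± SD, n = 4 each). In the Kmt2a experiment it stood at 397, 271 and 634 against 95.8, 73.8 and 15.9, a larger ratio (log2 2.81 against 1.17). The groups did not overlap in either experiment, and the authors' deposited tables give an adjusted p of 0.0202 for Men1 and 3.95e-05 for Kmt2a. Noggin (Nog), which inactivates bone morphogenetic proteins as follistatin does activin, was also in both tables. It stood at 30.2, 12.3, 22.6 and 25.9 in Men1 KO and 2.36, 12.9, 6.76 and 9.33 in WT libraries, where 1 knockout library lay below the highest wild-type library. It rose from 9.82 ± 7.6 to 41.7 ± 9.52 without Kmt2a (n = 3 each, adjusted p 0.00722 in the authors' deposited table), and without WT library b that log2 ratio went from 2.08 to 2.82. Of 27 genes listed as hormones, neuropeptides or growth factor inhibitors, 3 had a Men1 row (Crh, Fst and Nog), all higher, and 8 a Kmt2a row, 4 higher and 4 lower. The 2 genes in both tables were thus both secreted inhibitors of TGF-beta family ligands, and both stood higher in each knockout; Nog passed the authors' threshold in Kmt2a only (0.124 in Men1).

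Rbp2 (chr9:98486115-98509781) encodes cellular retinol-binding protein 2, best known from the intestine. Its Men1 KO libraries held 68.9, 10.9, 49.3 and 18.5, all above the WT libraries at 3.55, 9.37, 3.87 and 10.4. Its Kmt2a KO libraries were close together at 119, 104 and 95.2, and WT libraries held 6.25, 5.51 and 31.8. WT library c was the highest of the 3; without it, the Kmt2a log2 ratio went from 2.87 to 4.17. The Men1 log2 ratio was 2.44 (adjusted p 0.0292 in the authors' deposited table). With 10 added to each mean the ratios were 1.48 and 2.24. The same addition moved 35 of 79 log2 ratios of the genes named here by over 1.5-fold, all toward 0.

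Hmgb1-ps8, a processed pseudogene of the chromatin protein gene Hmgb1, had 13.2, 50.8, 56.6 and 29.6 normalized counts in Men1 KO and 0, 7.03, 15.5 and 3.11 in WT libraries. Without WT-6097 its Men1 log2 ratio went from 2.55 to 3.48. No Kmt2a WT library had a read of it, and KO libraries held 23.8, 0 and 11.2, so it was at least 10.6-fold higher, taking 3 reads over the WT group as the floor. One Kmt2a KO library was at 0 like the wild type, and the adjusted p was 0.0413 in the authors' deposited table. Reads of a pseudogene and its parent can be hard to separate. It lies within Raet1e and H60b on the other strand but shares no exon base with either.

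Hspa1a and Hspa1b encode the stress-inducible HSP70 chaperones and are neighbours 10.0 kb apart on chromosome 17. Both were lower in both knockouts. Hspa1a (chr17:34969190-34972156) stood at 159.6, 37.8, 44.5 and 61.6 in Men1 KO and 612, 166, 815 and 384 in WT libraries. In the Kmt2a experiment it stood at 424, 254 and 540.4 in KO and 1485, 1122 and 2292 in WT libraries. All knockout libraries lay below all wild-type libraries in both experiments, with means 6.52 times and 4.02 times lower. The authors' deposited tables give an adjusted p of 0.0202 and 2.06e-06, and without KO-6075 the Men1 log2 ratio went from −2.70 to −3.37.

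Hspa1b (chr17:34956436-34959238) varied more among wild types. Its Men1 WT libraries held 1616, 368, 4640.5 and 940.3, and the lowest of them lay within the knockout range of 235 to 445. The Men1 log2 ratio of −2.40 went to −1.44 without WT-6097, and the authors' adjusted p there was 0.12 in their deposited table. In Kmt2a it fell from 3259.6 ± 594 to 738 ± 344 (n = 3 each, adjusted p 1.36e-06 in the authors' deposited table), with no overlap. Hspa1a and Hspa1b were the 2 of 21 listed heat shock and chaperone genes with a Men1 row. In Kmt2a 10 of the 21 had a row, 8 lower and 2 higher. Summed over the 2 genes, Men1 WT libraries ran from 534 to 5455 and KO libraries from 273 to 503. How reads shared between the 2 copies were assigned is not given in the sources used here. Of the exon bases of Hspa1a, 564 of 2967 are also exon of Gm20481 on the other strand, which has a row in neither table.

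The promoters of the 2 genes are shown because they are almost the same sequence ahead of genes that were both lower in both knockouts. These are the 250 bases before each gene's start, from RefSeq on GRCm38.p6, minus strand, chr17:34972157-34972406 for Hspa1a and chr17:34959239-34959488 for Hspa1b, written 5′ to 3′. Capitals mark matches to the heat shock element cores GAANNTTC or TTCNNGAA, each of which reads the same on both strands.
Hspa1a: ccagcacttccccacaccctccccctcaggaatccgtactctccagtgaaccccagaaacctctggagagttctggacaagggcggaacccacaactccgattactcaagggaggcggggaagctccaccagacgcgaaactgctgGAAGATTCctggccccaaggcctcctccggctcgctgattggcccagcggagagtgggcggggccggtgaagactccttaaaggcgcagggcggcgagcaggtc
Hspa1b: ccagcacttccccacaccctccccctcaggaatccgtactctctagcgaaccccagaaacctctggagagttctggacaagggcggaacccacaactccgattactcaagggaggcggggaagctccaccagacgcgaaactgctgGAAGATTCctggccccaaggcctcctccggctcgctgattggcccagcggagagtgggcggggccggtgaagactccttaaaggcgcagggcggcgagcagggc
The sequences are equal at 247 of 250 positions (98.8%), and each holds 1 match, starting 104 bases before the gene's start. Of all 32851 RefSeq promoters of this length, 12.8% hold at least 1 match, and so do 6 of the 38 promoters found for the 70 genes (15.8%). A match is a description of the letters and not a binding site.

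Atp10b (chr11:43149877-43262285), a phospholipid-transporting ATPase, stood at 23.6, 16.7, 59 and 30.8 in Men1 KO and 2.36, 14.1, 5.8 and 15.6 in WT libraries, without overlap. It rose from 16.3 ± 2.12 to 79.7 ± 39.8 without Kmt2a (n = 3 each, adjusted p 9.28e-05 in the authors' deposited table). Gm12144, an antisense RNA gene, lies inside Atp10b on the other strand and was higher in both too. Of its 1292 exon bases, 322 are also exon of Atp10b, and reads from these bases cannot be told apart without strand information, which the library kit does not keep. How many reads the 2 rows share was not tested. Gm12144 had 3.78, 1.45, 4.85 and 0 in Men1 KO libraries, 1 read in Men1 WT and none in Kmt2a WT, where the KO held 32.3, 28.9 and 25.2 (at least 25.9-fold higher). Gm12144 lies outside the rule for named genes and was chosen after its values were seen.

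Speer4c1, of the Speer family expressed in testis, had 45.3, 23.2, 162 and 145 in Men1 KO and 5.91, 45.7, 19.3 and 31.1 in WT libraries, with overlap. In Kmt2a it rose from 9.37, 4.41 and 45.3 to 149.7, 106 and 56.9. Without WT library c its Kmt2a log2 ratio went from 2.40 to 3.92; the Speer genes are near-identical copies, so its reads are uncertain. Inhca, encoding an inhibitor of carbonic anhydrase, stood at 13.2, 14.5, 13.7 and 50.5 in Men1 KO and 4.73, 15.2, 7.73 and 6.22 in WT libraries. Without KO-6086 its Men1 log2 ratio went from 1.44 to 0.71. It rose from 6.59 ± 2.64 to 26.7 ± 5.71 without Kmt2a.

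Krt14, the basal-cell keratin and the 1 airway epithelial marker in both tables, stood at 16.1, 7.26, 29.9 and 17.3 in Men1 KO and 10.6, 4.68, 4.83 and 4.15 in WT libraries, with overlap. In Kmt2a it rose from 2.08, 0 and 4.9 to 41.7, 11.4 and 13.1. The Kmt2a log2 ratio of 3.24 rested on few reads: it was 2.39 without KO library a, 2.66 without WT library b and 4.40 without WT library c. Of 28 airway markers, 5 had a Men1 row, all higher, and 8 a Kmt2a row, 4 higher and 4 lower. The deposited means of those 8 summed to 2151717 in Kmt2a WT and 706129 in Kmt2a KO, lower in the knockout while Krt14 was higher. Such a sum follows its most abundant genes, so it does not show a fall across the 8. The summed level of the 5 ran from 4658 to 26645 in Men1 KO and from 2467 to 11625.5 in Men1 WT libraries, most of it from Retnla, which macrophages express as well. Whether the amount of epithelium moved with Krt14 was not tested.

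**Figure D2:**
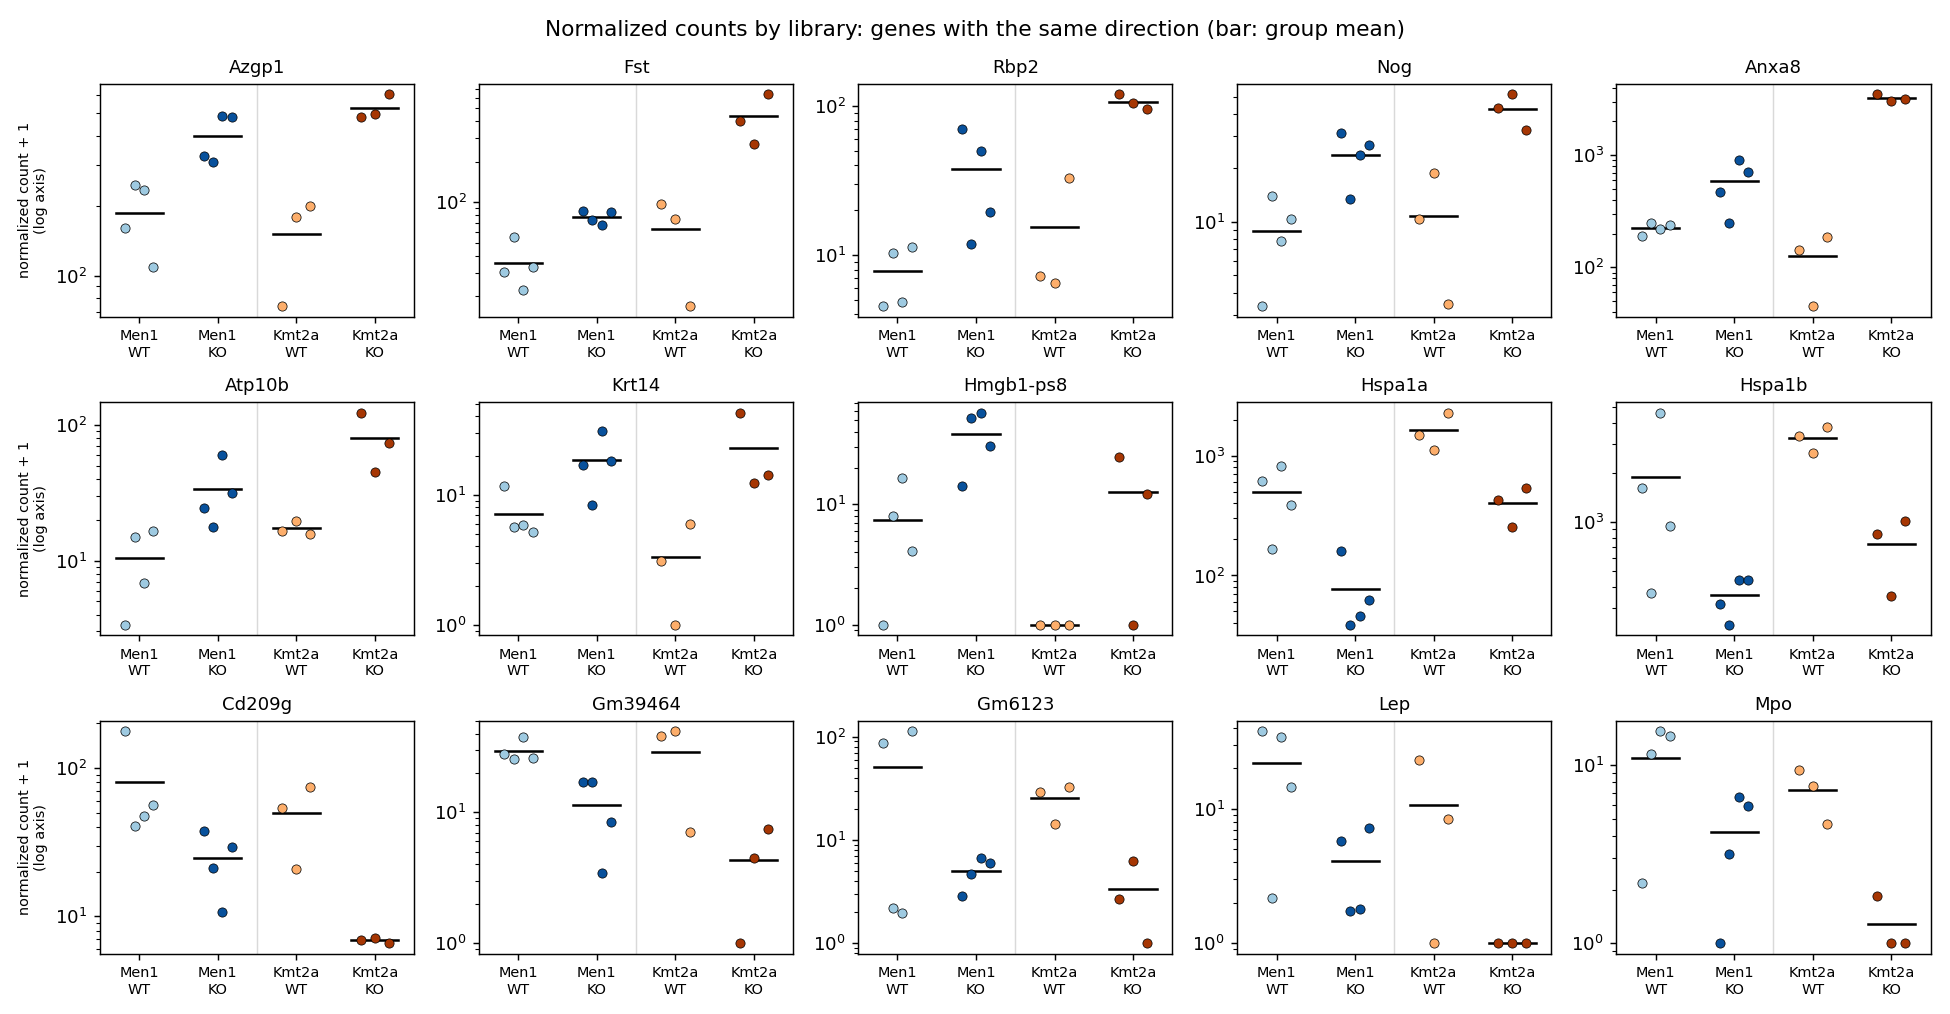
Normalized counts plus 1 (log axis, y) by group (x) for 15 same-direction genes; each point is 1 library (4 per Men1 group, 3 per Kmt2a group, the latter recovered from group means) and each bar the group mean. Azgp1, Fst and Rbp2 show no overlap between knockout and wild type in either experiment, while Hspa1b, Krt14 and Lep overlap in Men1.

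Among genes lower in both, Cd209g, a C-type lectin of the DC-SIGN family, stood at 36.8, 20.3, 9.7 and 28.4 in Men1 KO and 176, 39.8, 46.4 and 54.9 in WT libraries. The groups did not overlap, but without WT-6074 the Men1 log2 ratio went from −1.74 to −0.98. Without Kmt2a it fell from 53.1, 19.8 and 73.5 to 5.95, 6.12 and 5.6. The lincRNA gene Gm39464 stood at 16.1, 16, 2.43 and 7.4 in Men1 KO and 27.2, 24.6, 36.7 and 24.9 in WT libraries, without overlap. It fell from 37.5, 40.8 and 6.12 to 0, 3.5 and 6.53 without Kmt2a, where WT library c lay within the knockout range. Without KO library c that log2 ratio went from −3.07 to −4.01.

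Gm6123, a processed pseudogene, had the lowest log2 ratio in Men1 among the genes with reads in every group (−3.64). It rested on 2 of the 4 WT libraries: WT held 86.3, 1.17, 0.966 and 112 and KO 1.89, 3.63, 5.66 and 4.93, so the other 2 WT libraries lay below the knockout range. Without WT-6100 it went to −2.87, and with 10 added to each mean to −2.10. In Kmt2a all WT libraries (28.1, 13.2 and 31.8) lay above all KO libraries (1.7, 5.25 and 0). That log2 ratio of −3.40 went to −4.84 without KO library b and −2.81 without KO library c. Lep, encoding the adipocyte hormone leptin, stood at 4.72, 0.726, 0.808 and 6.16 in Men1 KO and 36.7, 1.17, 32.9 and 13.5 in WT libraries. No Kmt2a KO library had a Lep read and WT libraries held 21.9, 0 and 7.35, 1 of them also at 0; the KO was at least 11.4-fold lower, with 3 reads over the KO group as the floor. Lep was the 1 adipocyte marker of 15 with a Men1 row. In Kmt2a 6 had a row, 5 lower, and the summed level of the 5 with recovered reads ran from 541 to 4310 in WT and 362 to 589 in KO libraries. The part of fat tissue in the lung samples was not tested.

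Mpo, the neutrophil granule enzyme myeloperoxidase, stood at 0, 2.18, 5.66 and 4.93 in Men1 KO and 1.18, 10.5, 14.5 and 13.5 in WT libraries. In Kmt2a 1 read was left in the 3 KO libraries, against 8.33, 6.61 and 3.67 in WT, a log2 ratio of −4.45 with an exact 95% counting interval of −9.81 to −1.75. Among 25 neutrophil markers, the 3 with a Men1 row (Camp, Ngp and Mpo) were all lower. Of the 6 with a Kmt2a row, 5 were higher and only Mpo lower. The summed level ran from 23.6 to 163 in Men1 KO and from 170 to 460 in Men1 WT libraries, so Mpo lay on the same side as the other neutrophil genes in Men1 and on the opposite side in Kmt2a. The part of neutrophil number was not tested.

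The other 43 genes lie outside the naming rule, and the ones below are named after their values were seen. Of these 43, 25 were higher in both, 8 lower in both and 10 higher without Men1 and lower without Kmt2a. KO and WT libraries did not overlap for 13 of the 43 in Men1 and for all 43 in Kmt2a. The shares were 35.5% over the whole Men1 table and 97.0% over the Kmt2a genes with recovered reads, so neither count sets these genes apart. Among enzymes, Alox12e, an epidermal lipoxygenase, stood at 9.44, 4.36, 9.7 and 24.7 in Men1 KO and 0, 3.51, 0.966 and 4.15 in WT libraries, without overlap. It rose from 10.4, 0 and 11 to 45.1, 33.2 and 35.5 without Kmt2a, with log2 ratios of 2.48 and 2.41 and an interval of their difference of −2.59 to 2.62. Without KO-6086 the Men1 ratio went to 1.86, and without WT library b that of Kmt2a to 1.82. Adtrp, which hydrolyses branched fatty acid esters, had log2 ratios of 1.47 and 2.49 without overlap in either experiment, and without WT library a the Kmt2a ratio went to 4.09. Galnt9, a transferase that starts O-linked glycans, stood at 40.6, 5.81, 4.85 and 2.47 in Men1 KO and 3.55, 5.85, 1.93 and 5.18 in WT libraries. KO-6075 alone carried its Men1 log2 ratio, which went from 1.70 to 0.08 without it. The Kmt2a ratio of 2.98 went to 4.67 without WT library a. Aoc1, encoding the diamine-degrading amine oxidase 1, had the highest counts of these genes, with means of 121 and 294 in Men1 WT and KO and 176 and 1606 in Kmt2a WT and KO.

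Scn8a, a voltage-gated sodium channel gene, stood at 13.2, 16, 7.28 and 14.8 in Men1 KO and 4.73, 8.2, 1.93 and 2.07 in WT libraries, with overlap, and rose from 11.5, 9.92 and 11 to 23, 42.8 and 26.1 without Kmt2a. Fxyd4, a regulator of the sodium-potassium pump, had log2 ratios of 1.24 and 2.27. Gabra4, a GABA-A receptor subunit gene, was lower in both: it stood at 14.2, 16, 2.43 and 9.86 in Men1 KO and 33.1, 19.9, 32.9 and 18.7 in WT libraries, without overlap, and fell from 41.7, 34.2 and 24.5 to 5.95, 9.62 and 4.67 without Kmt2a. Amh, encoding anti-Müllerian hormone of the TGF-beta family, was likewise lower, at 4.72, 10.2, 11.3 and 11.1 against 22.5, 25.8, 17.4 and 23.8 in Men1 and 9.35, 2.62 and 5.6 against 38.5, 26.5 and 34.3 in Kmt2a, with no overlap in either. Lrrc10, a gene of heart muscle, had log2 ratios of −1.34 and −3.08, and its Men1 groups overlapped. Its Kmt2a ratio went to −2.0 without WT library a and −3.75 without KO library b.

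Whether the 2 effects differed in size was tested with edgeR's quasi-likelihood test of the interaction, on the reads of the 70 genes, which are all those with a row in both tables, with the authors' size factors, adjusted by Benjamini-Hochberg over the 70. It called 21 genes (30%): all 20 opposite-direction genes and 1 of the 50 same-direction genes, Anxa8. Genes of opposite sign that had passed a filter in each table were bound to differ, so their calls add nothing. Because the adjustment ran over all 70 genes, their low p-values also make the adjusted p of the same-direction genes smaller. The shared estimate of spread comes from these selected genes only, which can make p-values too small. Anxa8 (chr14:34085981-34100571) encodes annexin A8, a calcium-dependent membrane-binding protein. Men1 KO libraries held 467, 248, 910.2 and 706 and WT 189, 249, 218 and 238, with 1 knockout library inside the wild-type range. Kmt2a KO libraries held 3494, 3049.9 and 3190.1 against 142, 44.1 and 187, a 26.1-fold rise beside a ratio of 2.6 in Men1. The Kmt2a effect exceeded the Men1 effect by 3.33 (SE 0.76) on the log2 scale, with a 95% interval of 1.75 to 4.90 and an adjusted p of 0.00409 (edgeR, 4 against 4 and 3 against 3 libraries). Anxa8 was also called by DESeq2, by limma, with another scaling, with a filter on low means and with each library left out, with an adjusted p from 2.18e-05 to 0.0105. With trimmed-mean scaling over the 70 genes its difference was 4.49.

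**Figure D3:**
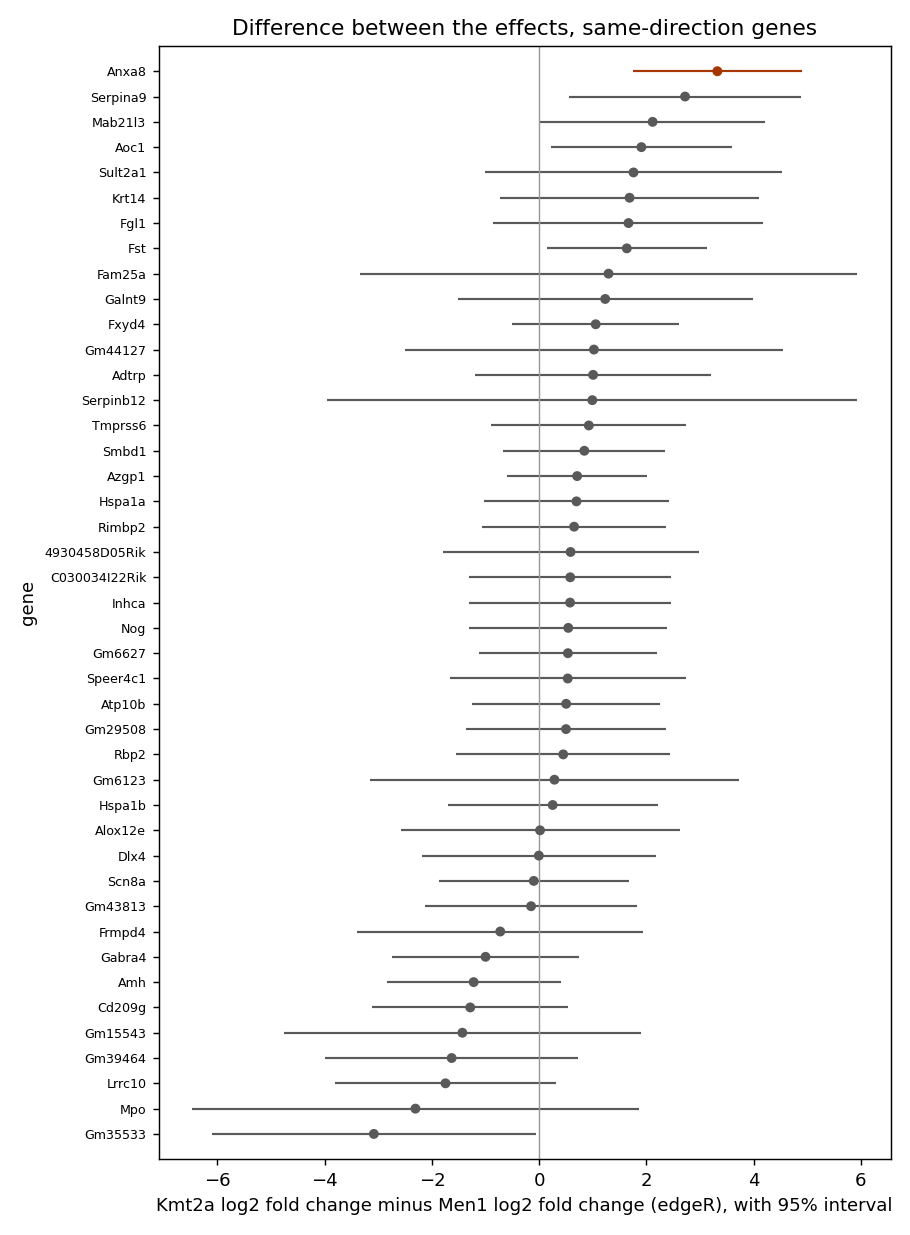
Kmt2a log2 fold change minus Men1 log2 fold change (x axis, edgeR) with its 95% interval for the 43 same-direction genes with reads in every group (y axis); the gene past the adjusted p threshold is in colour. Anxa8 lies highest, and most intervals span 0 while also reaching beyond 1 in size.

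For the other same-direction genes the intervals were wide, and a missed threshold does not show that the effects were alike. Of the 43 with reads in every group, the 95% interval of the difference spanned 0 for 37. It was −0.60 to 2.02 for Azgp1, −1.55 to 2.45 for Rbp2, −1.02 to 2.41 for Hspa1a and −1.70 to 2.21 for Hspa1b. Dlx4, a homeobox gene outside the rule for named genes, had nearly equal log2 ratios of 2.30 and 2.25, yet the interval of their difference was −2.18 to 2.17, and its Kmt2a ratio went to 3.09 without WT library b. Fst had a difference of 1.64 (SE 0.72) and an interval of 0.14 to 3.13, with p 0.0342 and an adjusted p of 0.0921 (edgeR). Serpina9 and Aoc1 had an adjusted p of 0.0574 and 0.0839 (edgeR) and are named here after their values were seen. These adjusted values are made smaller by the opposite-direction genes, so they do not show how near each gene came among same-direction genes alone. Scaling by the trimmed mean over the 70 genes in place of the authors' size factors called 9 same-direction genes and 10 opposite ones, so how many sizes differ depends on the scale.

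The opposite-direction genes that the naming rule selected are 8 that were higher without Men1 and both of the reverse kind. Selenbp2, a selenium-binding protein gene, stood at 227, 359, 42.8 and 75.2 in Men1 KO and 42.6, 30.4, 41.6 and 42.5 in WT libraries, so the knockout mean rested on KO-6075 and KO-6076. Without KO-6076 its Men1 log2 ratio went from 2.16 to 1.55. Without Kmt2a it fell from 482, 380.3 and 594 to 68.9, 138 and 135. Aspg, encoding an asparaginase, was the reverse within Men1: KO libraries held 103, 66.1, 294 and 286, highest in KO-6084 and KO-6086, against 43.7, 94.8, 67.6 and 93.3 in WT. It fell from 227 ± 149.9 to 49.1 ± 23.1 without Kmt2a (n = 3 each).

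Cyp2b19, a cytochrome P450 of the skin that oxidizes arachidonic acid, stood at 18.9, 18.2, 51.7 and 32.1 in Men1 KO and 9.46, 11.7, 11.6 and 12.4 in WT libraries, without overlap. It fell from 54.1, 87.1 and 245 to 44.2, 51.6 and 30.8 without Kmt2a. That fall rested on WT library c, without which the log2 ratio went from −1.61 to −0.74. Nags makes N-acetylglutamate, the activator of the first urea cycle enzyme. It stood at 28.3, 32, 18.6 and 24.7 in Men1 KO and 9.46, 16.4, 10.6 and 11.4 in WT libraries and fell from 31.2, 40.8 and 55.1 to 11.1, 11.4 and 14 without Kmt2a, with no overlap in either experiment. Baiap2l2, a membrane-bending protein gene, had log2 ratios of 1.13 and −2.28. Smim38, a small membrane protein gene, had 1.09 and −1.71.

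Directions differed by gene type, in small numbers and without a test. Of the 9 processed pseudogenes, 6 were higher without Men1 and lower without Kmt2a, and 3 had the same direction. Of the 48 protein-coding genes 37 had the same direction (77.1%), as had 10 of the 12 antisense, lincRNA and processed-transcript genes (83.3%). In the whole Kmt2a table, 146 of 170 processed pseudogenes were lower (85.9%), and 54 of 73 in the Men1 table were higher (74.0%), beside 73.6% of its protein-coding genes, counted over the 512 of 772 Men1 genes with a type in GENCODE M21. Gm8566, a processed pseudogene, stood at 28.3, 41.4, 43.7 and 24.7 in Men1 KO and 10.6, 16.4, 22.2 and 14.5 in WT libraries and fell from 287 ± 54.1 to 127 ± 12 without Kmt2a (n = 3 each). Rpl27-ps3, named as a copy of a ribosomal protein gene but typed as protein-coding in the Kmt2a table, had log2 ratios of 1.05 and −1.52. Reads of such copies depend on how reads shared with the parent gene were counted.

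**Figure D4:**
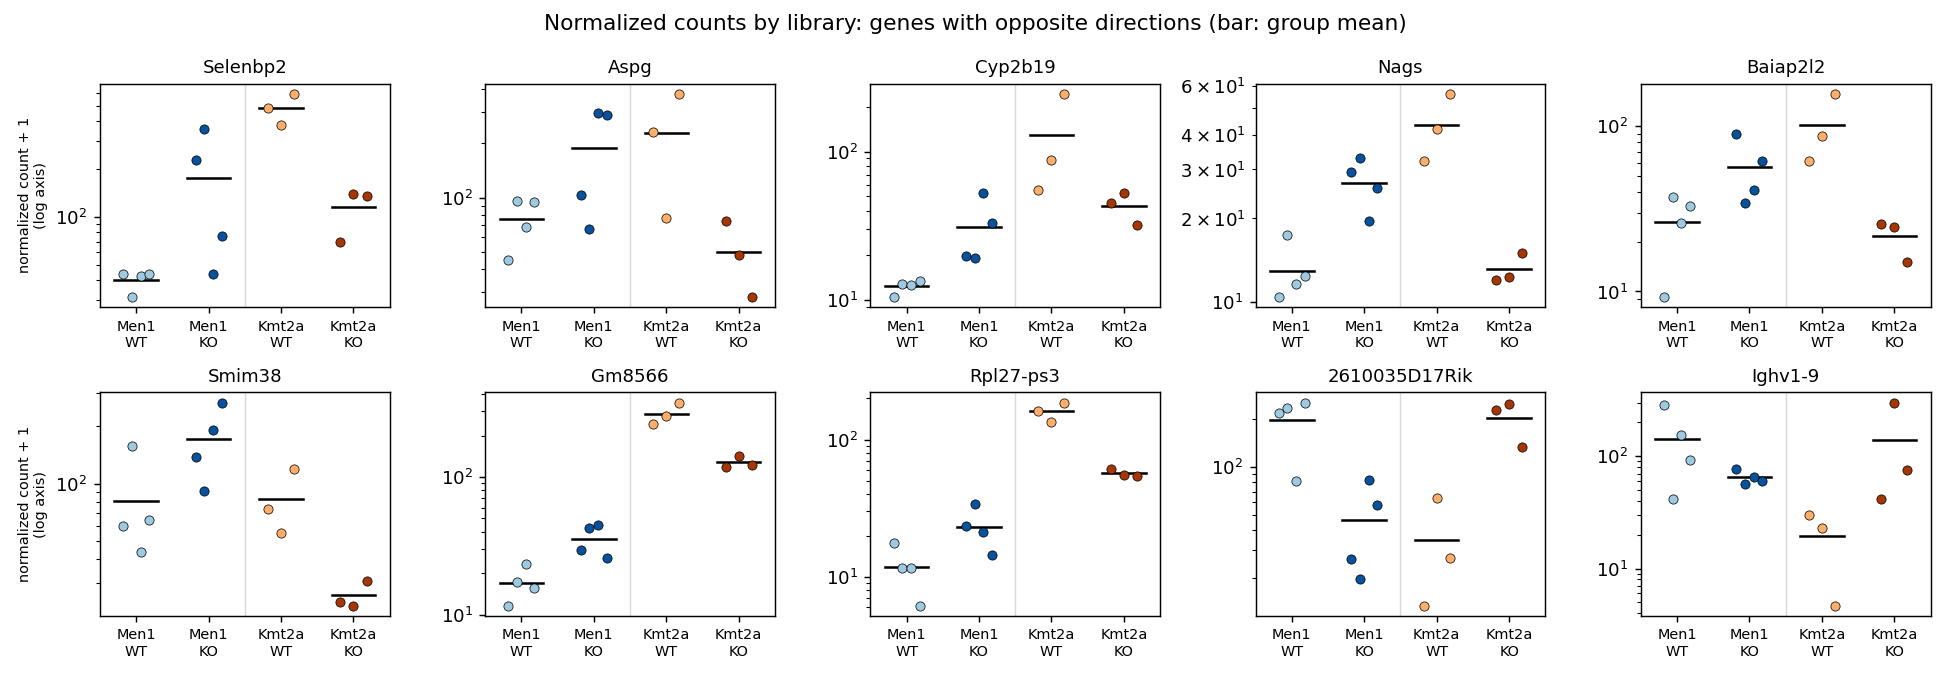
Normalized counts plus 1 (log axis, y) by group (x) for 10 opposite-direction genes; each point is 1 library and each bar the group mean. In the 8 genes higher without Men1, the Kmt2a wild-type mean stands above the Men1 wild-type mean, and in 2610035D17Rik and Ighv1-9 it stands below. Sorting genes by opposite directions favours both.

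The 2 genes of the reverse kind were the lincRNA gene 2610035D17Rik and the immunoglobulin heavy chain variable gene Ighv1-9. 2610035D17Rik (chr11:113043895-113201838) stood at 25.5, 18.9, 81.6 and 56.7 in Men1 KO and 219, 233, 81.2 and 253 in WT libraries, where the highest KO library reached just above the lowest WT library, and the authors' deposited adjusted p was 0.0592. It rose from 12.5, 62.8 and 25.7 to 228, 249 and 133 without Kmt2a. Without WT library b the log2 ratio of that rise went from 2.59 to 3.41. Ighv1-9 varied between libraries, at 283, 41, 155 and 91.2 in Men1 WT libraries. Its Men1 KO libraries held 76.5, 55.9, 64.7 and 59.2, all inside the wild-type range, and the authors' deposited adjusted p was 0.194. Its Kmt2a log2 ratio of 2.92 went to 1.65 without KO library b.

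The levels of the wild types differed between the experiments for these genes. The tables were normalized separately, so such levels are set side by side without a test. Of the 18 genes higher without Men1 and lower without Kmt2a, all 18 had the higher wild-type mean in the Kmt2a experiment, by a median of 3.68 on the log2 scale with 1 added to each mean. The 2 of the reverse kind both had the lower one. Between the knockouts of the 18 genes the median difference was 0.53, with 11 of 18 higher in Kmt2a KO. These genes were sorted by a positive Men1 ratio (median 1.15) and a negative Kmt2a ratio (median −1.70). By arithmetic, such a pair of ratios makes the wild-type difference larger than the knockout difference, so this contrast is no separate observation. Over the 50 genes of the same direction, the wild-type medians of this difference were 0.10 for the 35 higher and 0.54 for the 15 lower genes. As an example, mt-Nd4l, a mitochondrial complex I subunit gene named after its values were seen, stood at 32.4 ± 9.63 in Men1 WT (n = 4) and 1237 ± 884 in Kmt2a WT (n = 3). Its knockouts stood at 64.8 ± 35.6 and 355 ± 57.8, respectively. Without WT library c its Kmt2a log2 ratio went from −1.80 to −1.03. How far the difference between the wild types goes beyond this sorting, and what it comes from, was not tested.

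None of the listed targets of the complex was shared. Of 45 genes listed as members or known targets of menin and MLL, none had a Men1 row, while 11 had a Kmt2a row, all lower: Hoxa2, Hoxa3, Hoxa4, Hoxa5, Hoxb4, Hoxb7, Meis1, Meis2, Pbx3, Eya1 and Cdkn2c. Over the whole Kmt2a table, 70 of 3956 genes (1.77%) had a Men1 row, so the lack of a shared gene among 11 does not set these targets apart. A gene without a row in the Men1 table missed its filter on p (0.05) or on size (1 on the log2 scale), which does not show that it did not differ. The same holds for lists large in Kmt2a alone, such as the 27 sterol and fatty acid synthesis genes, all higher, and the 21 heart and skeletal muscle genes, all lower, none of which had a Men1 row. Alveolar type 1 and type 2 markers had 18 rows in Kmt2a, 17 higher, and none in Men1.

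**Figure D5:**
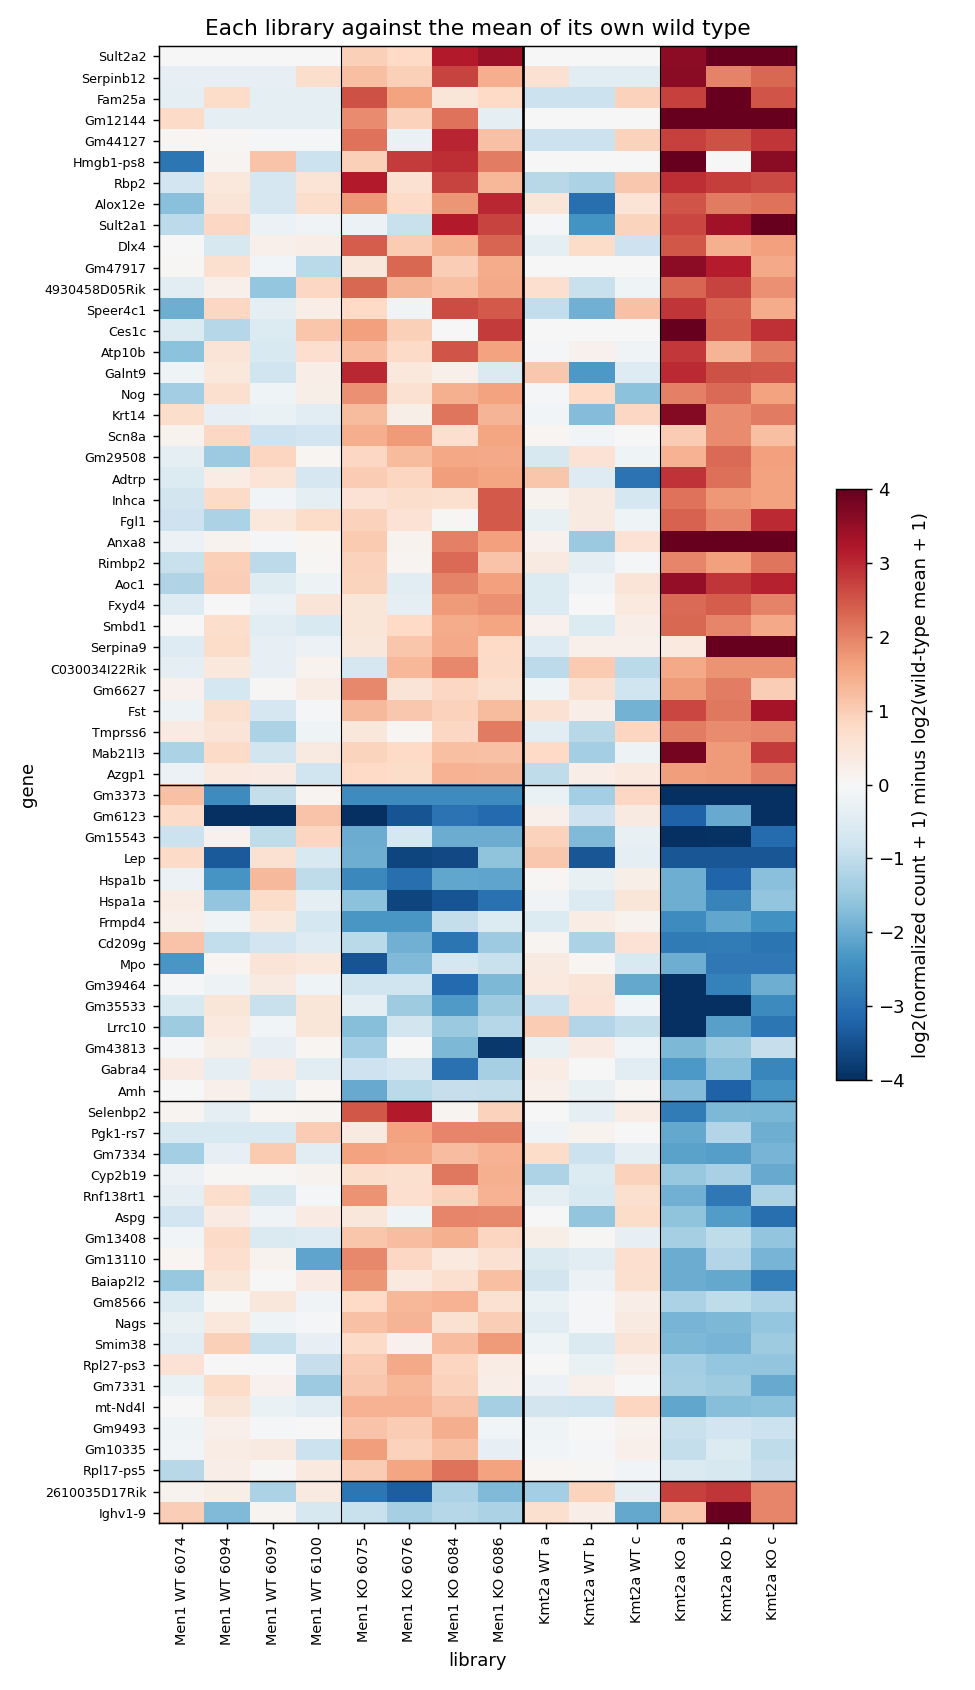
Each library (x axis) against the mean of its own wild type, log2 of normalized count plus 1, for the 70 genes (y axis); red is higher and blue lower, with horizontal lines between the direction classes and a bold line between the experiments. Within the 35 genes higher in both, Men1 knockout library KO-6084 holds the highest Men1 knockout value for 17.

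Single libraries held the extreme values of many genes. Of the 35 genes higher in both, 17 had their highest Men1 knockout value in KO-6084, 8 each in KO-6075 and KO-6086, and 2 in KO-6076. In Kmt2a, KO library a held the highest knockout value for 19 of the 35, b for 9 and c for 7. Men1 library WT-6094 held the highest wild-type value for 18 of the 35. Of the 15 lower in both, 7 had their lowest Men1 knockout value in KO-6075, 4 in KO-6084, 3 in KO-6076 and 1 in KO-6086, and 8 had their lowest Kmt2a knockout value in library a. The share of genes with the same direction was 71.4% with any 1 of the 14 libraries left out, as it was with medians in place of means. The genes had been selected for a change in each experiment on these same libraries, so few signs could have turned. Members close together on a chromosome were few: besides Hspa1a with Hspa1b and Atp10b with Gm12144, Sult2a2 and Sult2a1 lie 16.6 kb apart, and both were higher in both knockouts. These sulfotransferase genes, outside the rule, are near-identical copies. Sult2a2 had no read in any wild-type library and 0.944, 0.726, 8.08 and 9.86 in Men1 KO and 11.1, 16.6 and 56.9 in Kmt2a KO libraries, at least 5.5-fold and 24.5-fold higher.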

How the data were processed

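Total RNA of 14 mouse libraries was compared, each knockout with its own wild type. The submitters' processing notes name DESeq2 1.16.1, HISAT2 2.0.5 and featureCounts 1.5.0-p3 and the builds GRCm38 and mm10, without roles. In the Men1 table the authors deposited raw counts per library and normalized counts, a signal equal to the count over 1 size factor per library, for genes with p under 0.05 and a log2 fold change of 1 or more in size. In the Kmt2a table the authors deposited a signal, the mean normalized count per group, for genes with an adjusted p under 0.05. Both carry the authors' deposited log2 fold changes, p-values and adjusted p-values. Left unused were 2 wild-type columns of the Men1 table that match no sample. The Kmt2a table does not name the libraries behind its wild-type column, assumed here to be the 3 wild types titled Kmt2a.

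The deposited Kmt2a means carry 15 digits, so the whole reads of 3 libraries per group were recovered for means up to 4000 (3637 of 3637 KO and 3686 of 3686 WT means to 1 solution, all 70 genes included). On simulated means, 400 of 400 were recovered in each group. Effects were compared with edgeR 4.0.16 on these reads and the Men1 counts with the authors' size factors; DESeq2 1.42.0, limma 3.58.1 (log2 of normalized count plus 1), another scaling, a mean of at least 20, and leaving out each library were alternatives. Standard errors and intervals of edgeR's differences are Wald values from its fitted weights and quasi-dispersion, given only for genes with reads in every group. On simulated data for this comparison over the 70 genes, 22.8% of 4-fold differences were called and 0.143% of genes without a difference. The 0.143% comes from simulations in which no gene differed. The data hold 20 opposite-direction genes bound to differ, so that rate does not carry over to them. Where the average of the Men1 and Kmt2a wild-type means was at least 20, 33.5% of 4-fold differences were called. Counting intervals and floors (3 reads over a group) cover counting error only.

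The 70 genes and the gene lists were chosen with earlier results of these data known. Genes named are those past the authors' adjusted p in both tables, the 10 same-direction and 10 opposite-direction genes with the largest smaller absolute log2 ratio at a mean of at least 20, members of a gene list, and same-direction genes whose effects differed. Gene types and coordinates of the 70 are those of the Kmt2a table, and types of other Men1 genes those of GENCODE M21 (512 of 772 matched); 65 of the 70 have the same coordinates in GENCODE M21 (GRCm38). Of the 70 genes, 9 carry another symbol in the Kmt2a table. Overlapping genes and their shared exon bases were taken from GENCODE M21.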

Additional observations from a re-analysis of the deposited data

Results flagged for a closer look

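In groups of 4, a library was marked when its gap to the nearest other library, over the group's range, passed Dixon's 95% critical value, which marks about 1 group in 20 by chance. Of 84 Men1 groups of 42 named genes, 7 were marked. Krt14 in WT-6074 stood at 10.6 normalized counts, above the other wild types. Cd209g in the same library stood at 176, far above the other wild types. Inhca in KO-6086 stood at 50.5, and the other KO libraries at 13.2 to 14.5. Selenbp2 in WT-6094 stood at 30.4, below the other wild types. Galnt9 in KO-6075 stood at 40.6, and the other KO libraries at 2.47 to 5.81. Serpina9 in WT-6094 stood at 7.03, above the other wild types. Gm12144 in WT-6074 stood at 1.18, which is 1 read, and the other wild types had none.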

How the results depend on the processing

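The direction in both knockouts was the same for 71.4% of genes with medians, with the sign of the authors' log2 fold change and with each library left out. Selection of the genes on these same libraries largely fixed that. The share was 60% above a mean of 20 and 50% above a mean of 50. At an unadjusted Men1 p under 0.01, 43 genes passed in both tables (30 of the same direction), and at an adjusted p under 0.1 in both, 10 passed (9 of the same direction), against 5. Spearman's rho across genes was 0.33 with a pseudocount of 10 over all 70 genes and 0.36 over the 63 of the main value (chosen after seeing the data), 0.54 above a mean of 20 and 0.50 to 0.63 with 1 library left out, lowest without KO-6084.

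The test of the difference between effects called 15 of 35 genes with the filter on low means and 18 to 24 of 70 under every other setting, against 21 of 70. Among same-direction genes it called 2 with DESeq2, 2 with limma and 9 with trimmed-mean scaling over the 70 genes, against 1, and 1 to 4 with 1 library left out; the count was 4 without KO-6084 and 4 without Kmt2a WT library a, 3 without WT-6074, and 2 without KO-6086, Kmt2a KO library a or Kmt2a KO library c. In each setting the adjustment included opposite-direction genes, which were bound to differ, so these counts of same-direction genes rest partly on them. The cause of the changes in count was not tested. None of 710 log2 ratios of named genes under a pseudocount, medians or a library left out had the other sign. A pseudocount added to both means cannot change a sign, and the genes were selected for a change on these same libraries. The count therefore says little about stability. Ratios with a group without a read were left out, as for Hmgb1-ps8, Lep and Gm12144 in Kmt2a, Sult2a2 in both, and Mpo without Kmt2a KO library a. The genes named outside the rule were added to these settings after seeing the data. No paired analysis was possible because the groups share no replicate numbers. Low counts limit the rest: 35 of the 70 genes had a higher mean under 20 in at least 1 experiment.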
